A study of Mus musculus with 6 samples.

Results

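Matricellular proteins are secreted proteins of the extracellular matrix that bind matrix fibres, growth factors and cell surface receptors, and that act on how cells attach, migrate and respond rather than as load-bearing fibres. In all, 10 genes of this class were taken by symbol from the gene table: the thrombospondins Thbs1, Thbs2, Thbs3, Thbs4 and Comp, the tenascins Tnc and Tnxb, and Postn, Spp1 and Sparc, the genes of periostin, osteopontin and SPARC. All 10 were found among the 55471 genes of the table. Of these, 9 passed the filter on low counts, and Thbs4 did not.

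Thrombospondins 1 and 2 are assembled as trimers and are inhibitors of blood vessel growth, and thrombospondin 1 can also activate latent TGF-beta. Thrombospondins 3 and 4 and COMP, the cartilage oligomeric matrix protein, are assembled as pentamers. Tenascin-C is made by embryonic and wounded connective tissue and weakens attachment of cells to fibronectin. Tenascin-X is tied to collagen fibrils, and its loss in humans causes a form of Ehlers-Danlos syndrome. Periostin binds collagen, tenascin-C and integrins, osteopontin binds integrins and CD44, and SPARC binds collagen during its deposition.

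The libraries were polyA RNA of 10T1/2 cells, a mouse embryonic fibroblast line, grown without treatment. One group was labelled Ranbp2 KO, made with CRISPR/Cas9 against the gene of a nuclear pore protein, and the other was labelled WT, with 3 libraries each, described as biological replicates. Whether KO-labelled cells came from 1 clone or several, and from which cultures, is not in the labels, so a p-value here reflects spread among 6 libraries that may be technical in part. Total expected counts ran from 32072817 to 39378190 in the KO-labelled libraries and from 41354198 to 46321967 in the WT libraries. Ranbp2 itself stood at 294, 289 and 293 counts per 1000000 of the TMM-scaled library total (CPM) in KO-labelled libraries, against 219.6, 249.96 and 249 CPM in WT libraries, a log2 difference of 0.28 (SE 0.07, adjusted p 0.012). Its mRNA was thus higher, not lower, in the libraries labelled as its knockout, although the design text says that deletion was examined by qPCR, blotting and staining; a gene total cannot show a small edit. Hence the name KO-labelled is used for them, and differences are KO-labelled minus WT. Of 8 fibroblast markers, 4 were higher, with log2 differences of 2.23 for Lum, 1.98 for Dcn, 0.94 for Col3a1 and 0.36 for Pdgfra. Another 2 were lower, at -0.43 for Col1a1 and -0.37 for Pdgfrb. Of all genes tested, 17.6% were called higher and 21.3% lower. Lum rested on few reads, with 87 counts over the KO-labelled and 22 over the WT libraries. Vim and Col1a2 were not called, and Vim averaged 5337 ± 117 CPM in the KO-labelled and 5326 ± 138 CPM in WT libraries (SD, n = 3 each). The call for Col1a1 (adjusted p 0.0249) was lost without KO-labelled library 1 or 2 or WT library 1 or 2 (adjusted p 0.0545 to 0.085) and with the replicate number as a block (0.0754). The other marker lists stand with the results they touch.

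The stretches of DNA just upstream of the members that changed are shown because these genes moved in opposite directions in the same comparison. They are the 250 bases before the gene start in RefSeq, build GRCm38.p6, for the 5 changed members that have an entry, with Postn, Spp1 and Thbs3 from the members that rose and Tnc and Thbs2 from those that fell. Of the 10 members, 8 had an entry; Thbs1 and Comp had none. Capitals mark matches, on either strand, to TATAAA (the TATA box), GGGCGG (a GC box) and TGTGGT (the core of RUNX sites). Where RefSeq gives several starts, the one nearest to the gene start in GENCODE was taken.
Postn, chr3:54360857-54361106, plus strand: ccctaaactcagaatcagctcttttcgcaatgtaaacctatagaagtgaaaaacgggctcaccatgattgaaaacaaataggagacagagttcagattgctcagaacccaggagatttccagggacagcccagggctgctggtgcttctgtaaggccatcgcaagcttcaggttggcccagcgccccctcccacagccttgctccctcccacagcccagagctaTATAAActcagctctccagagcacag
Spp1, chr5:104434861-104435110, plus strand: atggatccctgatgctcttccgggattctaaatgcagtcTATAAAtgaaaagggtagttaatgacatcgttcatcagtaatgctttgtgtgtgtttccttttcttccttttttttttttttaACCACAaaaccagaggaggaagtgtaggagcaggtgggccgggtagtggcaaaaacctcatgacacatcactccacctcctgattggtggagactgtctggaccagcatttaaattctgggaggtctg
Thbs3, chr3:89214930-89215179, plus strand: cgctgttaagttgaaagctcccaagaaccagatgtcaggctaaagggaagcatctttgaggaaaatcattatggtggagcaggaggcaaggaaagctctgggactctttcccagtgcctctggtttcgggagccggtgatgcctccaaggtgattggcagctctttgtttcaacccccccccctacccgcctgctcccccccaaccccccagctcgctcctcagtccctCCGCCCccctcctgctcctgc
Tnc, chr4:64047016-64047265, minus strand: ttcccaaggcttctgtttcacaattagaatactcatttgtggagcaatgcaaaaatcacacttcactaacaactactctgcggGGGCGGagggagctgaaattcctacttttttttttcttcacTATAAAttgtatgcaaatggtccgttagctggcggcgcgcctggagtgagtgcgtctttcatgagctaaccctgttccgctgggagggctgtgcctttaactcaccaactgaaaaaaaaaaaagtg
Thbs2, chr17:14694263-14694512, minus strand: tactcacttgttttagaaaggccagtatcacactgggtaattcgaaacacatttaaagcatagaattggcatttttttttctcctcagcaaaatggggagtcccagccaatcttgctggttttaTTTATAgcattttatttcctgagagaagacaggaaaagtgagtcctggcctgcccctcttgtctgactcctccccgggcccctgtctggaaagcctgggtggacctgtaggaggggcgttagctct

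In the Postn window, TATAAA ended 21 bases before the start, at -26 to -21. The same letters lay at -126 to -121 in Tnc and at -211 to -206 in Spp1, and on the opposite strand at -126 to -121 in Thbs2. TATAAA was present on either strand in 12.4% of the 32851 RefSeq windows of this length. GGGCGG, present in 32.7% of all windows, lay at -167 to -162 in Tnc and, on the opposite strand, at -21 to -16 in Thbs3. TGTGGT, present in 14.0% of all windows, lay on the opposite strand at -128 to -123 in Spp1. The letters TGANTCA (AP-1, 6.75% of all windows) and GGAATG (TEAD, 12.6% of all windows) and the CArG box (1.47%) were not in these 5 windows. No match overlapped another. A match is a run of letters and not a measured binding site.

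Periostin, osteopontin, COMP and thrombospondin 3 mRNAs rose in the KO-labelled libraries, and thrombospondin 1, tenascin-C and thrombospondin 2 mRNAs fell. SPARC and tenascin-X mRNAs did not pass the test. The threshold for calling a difference was an adjusted p of 0.05 in edgeR's quasi-likelihood test, with p-values adjusted over all 15454 genes tested. That rule called 38.9% of all genes tested, that is, 17.6% of all as higher and 21.3% of all as lower in the KO-labelled libraries. Among the 9 tested members it called 7, of which 4 were higher and 3 lower. In each of these 7 genes the 3 values of the KO-labelled libraries lay wholly above or wholly below the 3 WT values, as they did for 51.4% of all genes tested. In bulk RNA, fewer cells that make a transcript and less of it per cell cannot be told apart.

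**Figure D1:**
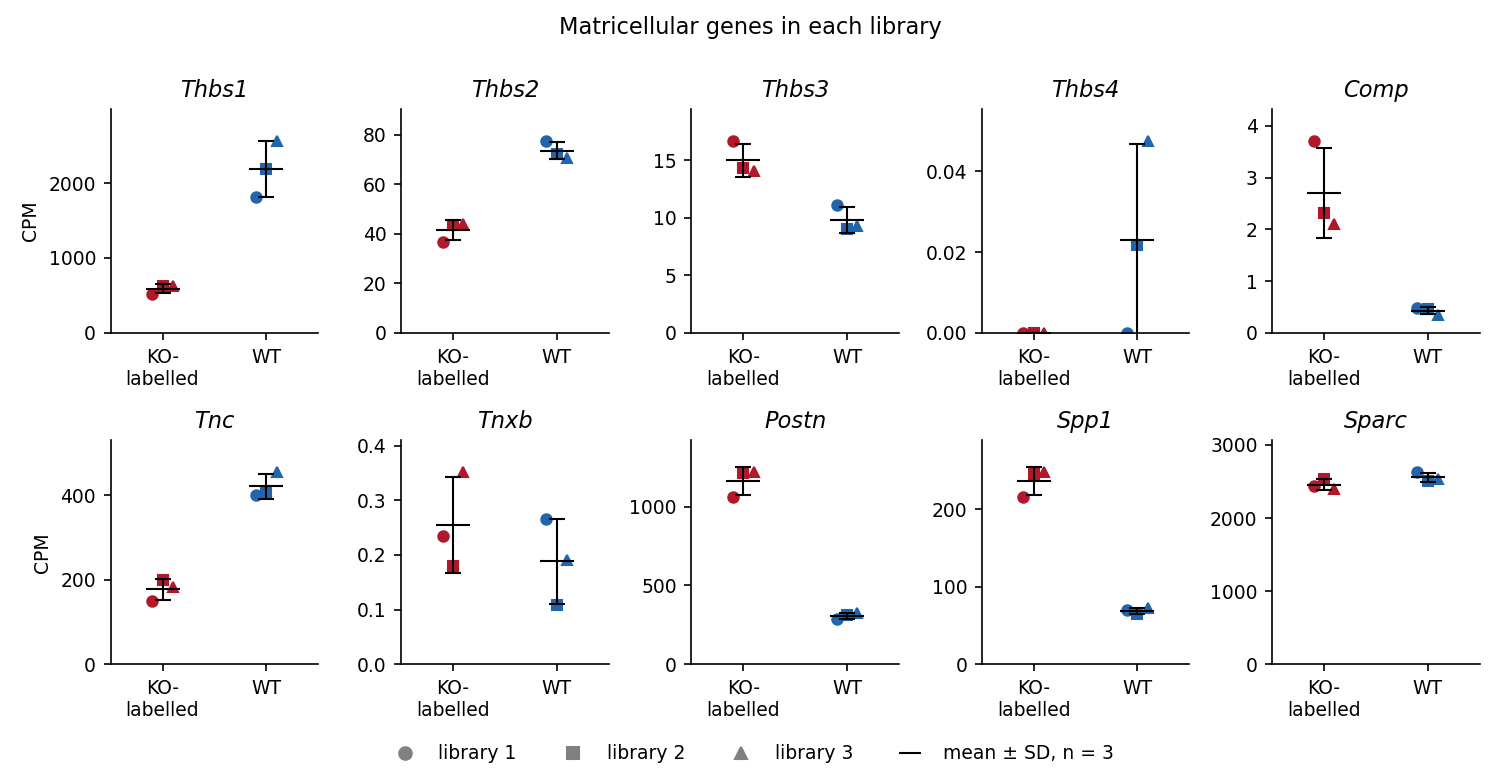
Each panel shows 1 matricellular gene, with CPM on a linear axis from 0, the 3 KO-labelled libraries at left in red and the 3 WT libraries at right in blue; marker shape gives the library number, and black bars give the mean ± SD of 3 libraries. The groups are apart in Thbs1, Thbs2, Thbs3, Comp, Tnc, Postn and Spp1, and overlap in Tnxb and Sparc, while Thbs4 has 0 counts in the KO-labelled libraries and 3 counts over the WT libraries.

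Thbs1 is the member with the largest decrease. Its mRNA stood at 520.4, 621 and 632 CPM in KO-labelled libraries, against 1815, 2189 and 2559 CPM in WT libraries. The highest KO-labelled value was thus far below the lowest WT value, and the WT libraries differed among themselves more than the KO-labelled ones did. The log2 difference was -1.89 (SE 0.14, 95% interval -2.19 to -1.58), which is 3.70-fold lower in the KO-labelled libraries, with an adjusted p of 5.94e-06. Thbs1 (ENSMUSG00000040152) lies on chromosome 2, 118111876 to 118127133, plus strand, in GRCm38.

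Thbs2, the closest relative of Thbs1 and also an inhibitor of blood vessel growth, fell as well. It stood at 36.8, 43.4 and 44.1 CPM in KO-labelled libraries, against 77.5, 72.4 and 70.8 CPM in WT libraries, without overlap. Its log2 difference was -0.83 (SE 0.09, interval -1.02 to -0.63, adjusted p 6.51e-05). Thbs1 and Thbs2 can be set side by side only per length: CPM was divided by the kilobases of the longest annotated transcript, 5848 bases for Thbs1 and 5895 for Thbs2. On that scale Thbs1 mRNA was 14.3, 14.4 and 14.4 times as abundant as Thbs2 mRNA in the KO-labelled libraries and 23.6, 30.5 and 36.4 times as abundant in the WT libraries. The ratio was therefore nearly the same in the 3 KO-labelled libraries and lower there than in any WT library. Thbs2 (ENSMUSG00000023885) lies on chromosome 17, 14665500 to 14694235, minus strand.

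Thbs3 and Comp, of the pentameric thrombospondins, rose from a low level. Thbs3 stood at 16.7, 14.3 and 14.1 CPM in KO-labelled libraries, against 11.1, 9.07 and 9.31 CPM in WT libraries, a log2 difference of 0.61 (SE 0.11, interval 0.36 to 0.86, adjusted p 0.00197). The groups were apart, but the gap between the lowest KO-labelled and the highest WT value was little wider than the range within the KO-labelled libraries. Thbs3 (ENSMUSG00000028047, chromosome 3, 89215180 to 89226837, plus strand) lies within the annotated extent of Mtx1, the gene of the mitochondrial import protein metaxin 1, which runs on the opposite strand. Mtx1 averaged 19.5 ± 2.18 CPM in the KO-labelled and 22.0 ± 0.438 CPM in WT libraries (SD, n = 3 each) and was not called (log2 difference -0.17, adjusted p 0.155). Since the strand setting of the counting is not given, reads of Thbs3 and Mtx1 may have been shared, and the level of Thbs3 is uncertain to that extent.

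Comp had 142, 90 and 66 counts in the KO-labelled libraries and 20, 21 and 15 counts in the WT libraries. These are 3.71, 2.31 and 2.11 CPM in the KO-labelled and 0.482, 0.457 and 0.356 CPM in WT libraries. All 3 KO-labelled values were above every WT value, with KO-labelled library 1 well above the other two. The log2 difference of 2.64 was the largest of any member in either direction but also has the widest interval of the 7 that were called (SE 0.29, interval 2.00 to 3.29, adjusted p 8.60e-05). COMP is a protein of cartilage and tendon that binds collagen IX and matrilins. Among the chondrocyte markers, 4 of 4 tested were higher, against 17.6% of all genes tested. Their summed level was 940.3 to 1053 CPM in the KO-labelled and 666 to 869 CPM in WT libraries. Of that list Col2a1, the main cartilage collagen, had the highest level, at 985 ± 58.3 CPM in the KO-labelled and 765 ± 102 CPM in WT libraries. Most of the sum is Col2a1, whose log2 difference of 0.37 was the smallest of the 4. The others had 1.03 for Col10a1, 2.37 for Matn3 and 4.74 for Hapln1. Hapln1 had 144 counts over the KO-labelled and 6 over the WT libraries. The defining cartilage genes Acan and Matn1 stood at 3 and 0 counts over KO-labelled libraries and at 0 and 3 counts over the WT libraries. Outside that list, Sox9, of the transcription regulators below, was lower (log2 difference -0.30, adjusted p 0.00589). Of the tendon markers, 2 were higher and 2 lower, beside 17.6% and 21.3% of all genes tested. Their summed level overlapped between the groups, at 37.2 to 39.3 CPM in the KO-labelled and 37.1 to 41.0 CPM in WT libraries. The part of such cells in the level of Comp was not tested. Comp (ENSMUSG00000031849) lies on chromosome 8, 70373558 to 70382066, plus strand.

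Thbs4, known from tendon, muscle and nervous tissue, was close to undetected. It had 0 counts in each KO-labelled library and 0, 1 and 2 counts in the WT libraries. A floor of 3 counts over a group is 0.0276 CPM in the KO-labelled and 0.0232 CPM in WT libraries, so both groups were at or under the floor and no fold is given. Thbs4 (ENSMUSG00000021702) lies on chromosome 13, 92751590 to 92794818, minus strand.

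Of the tenascins, Tnc was well expressed and fell, while Tnxb was near the limit of detection. Tnc stood at 149.9, 198 and 183 CPM in KO-labelled libraries, against 399.9, 408 and 454 CPM in WT libraries. The highest KO-labelled value was under every WT value by a wide margin. The log2 difference was -1.25 (SE 0.11, interval -1.49 to -1.01), or 2.38-fold lower in the KO-labelled libraries, with an adjusted p of 1.70e-05. Tnc (ENSMUSG00000028364, chromosome 4, 63959785 to 64047015, minus strand) is overlapped on the opposite strand by the noncoding transcript 8030451A03Rik, which averaged 0.812 ± 0.389 CPM in the KO-labelled and 1.46 ± 0.205 CPM in WT libraries and was not called (adjusted p 0.0682).

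Tnxb had 9, 7 and 11 counts in the KO-labelled libraries and 11, 5 and 8 counts in the WT libraries, and the groups overlapped. Its log2 difference of 0.43 had an interval of -0.66 to 1.51 (SE 0.48, adjusted p 0.520), so at this depth its interval spans more than 2-fold upward. Tnxb (ENSMUSG00000033327) lies on chromosome 17, 34670535 to 34719815, plus strand.

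Postn, the gene of periostin, a protein that promotes collagen cross-linking and binds tenascin-C, rose. It stood at 1062, 1213 and 1218 CPM in KO-labelled libraries, against 288, 312 and 325 CPM in WT libraries. Both groups were tight, and the lowest KO-labelled value was more than 3-fold the highest WT value. The log2 difference was 1.92 (SE 0.09, interval 1.71 to 2.12), or 3.78-fold higher in the KO-labelled libraries, with an adjusted p of 3.60e-07. Postn (ENSMUSG00000027750) lies on chromosome 3, 54361109 to 54391037, plus strand.

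Spp1, the gene of osteopontin, a phosphorylated glycoprotein of bone that is also made by macrophages, rose as well. Its mRNA stood at 215, 245 and 248 CPM in KO-labelled libraries, against 70.3, 64.3 and 72.0 CPM in WT libraries, with no overlap. The log2 difference was 1.78 (SE 0.08, interval 1.60 to 1.96, adjusted p 2.74e-07), or 3.43-fold higher in the KO-labelled libraries. Macrophage markers were scarce: their summed level was 2.59 to 3.73 CPM in the KO-labelled and 2.13 to 2.92 CPM in WT libraries. Adgre1 had 0 counts in every library, and 1 of 3 markers tested (Lyz2) was higher, where 17.6% of all genes tested were. Cd68 had the highest level of that list, at 1.54 ± 0.412 CPM in the KO-labelled and 1.59 ± 0.294 CPM in WT libraries. Osteoblast markers summed to 0.351 to 0.835 CPM in the KO-labelled and 0.435 to 1.04 CPM in WT libraries, and Dmp1, the only one tested, was not called. Spp1 (ENSMUSG00000029304, chromosome 5, 104435118 to 104441050, plus strand) overlaps the transcript model Gm42793, which starts 3 bases inside it on the same strand and had 18 counts over the KO-labelled and 17 over the WT libraries.

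Sparc, per length the most abundant member, had the smallest log2 difference of the members tested. It stood at 2436, 2538 and 2395 CPM in KO-labelled libraries, against 2626, 2511 and 2536 CPM in WT libraries. The groups overlapped, and the log2 difference was -0.06 (SE 0.09, adjusted p 0.624). Its interval of -0.25 to 0.13 leaves out any change as large as that of Thbs3 or Thbs2. Sparc (ENSMUSG00000018593) lies on chromosome 11, 55394500 to 55423183, minus strand.

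**Figure D2:**
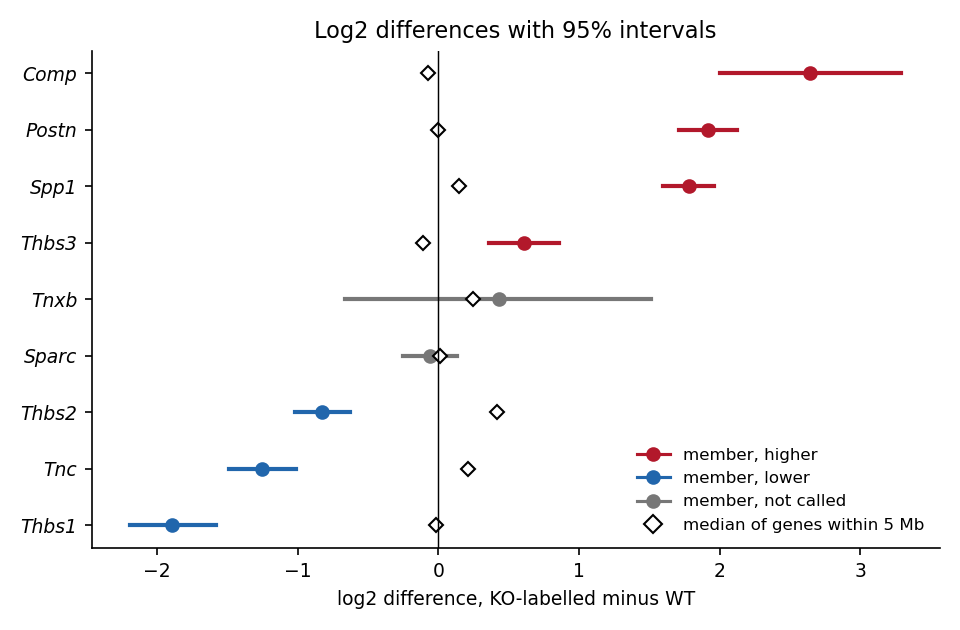
Log2 differences of the 9 tested members, KO-labelled minus WT, with 95% intervals as bars (red higher, blue lower, grey not called); open diamonds give the median log2 difference of the other tested genes within 5 Mb of the member. Members range from -1.89 for Thbs1 to 2.64 for Comp, while the diamonds lie between -0.11 and 0.42.

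Values of genes near the members are given by distance and by order. Tested genes within 5 Mb had median log2 differences of -0.02 around Thbs1, -0.11 around Thbs3, -0.07 around Comp and 0.15 around Spp1. Around Thbs2 and Tnc, both of which fell, the medians were 0.42 and 0.21. The median over chromosome 17, which holds Thbs2 and Tnxb, was 0.27, against 0.014 for all genes tested. Relative to its chromosome's median, Thbs2 stood at -1.10 and Tnxb at 0.15.

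Of 21 genes that overlap a member or have the nearest start on either side, 10 passed the count filter. The call was made for 1 of these, Gm5641, a transcribed pseudogene 120329 bases from the start of Postn, which was higher at 254 ± 25.2 CPM in the KO-labelled and 202 ± 28.0 CPM in WT libraries (log2 difference 0.33, adjusted p 0.037). Leaving out 1 library ended that call in 4 cases, with adjusted p-values of 0.056 without KO-labelled library 1, 0.144 without KO-labelled library 2, 0.108 without WT library 1 and 0.107 without WT library 2. Reads of a processed pseudogene can be shared with its parent gene, so this value is uncertain. Beside Mtx1 and 8030451A03Rik, those not called were Gm13986 near Thbs1, Gm43737 near Thbs3, Mtx3 near Thbs4, Upf1 and Crtc1 near Comp, Atf6b near Tnxb and Atox1 near Sparc, with log2 differences between -0.24 and 0.10. Where the nearest gene on a side did not pass the filter, the next tested one was taken, which gave 10 more genes, 4 of them called lower. Beside both counts, 38.9% of all genes tested were called, with 21.3% of all called lower. Smoc2, 414729 bases from Thbs2 by their starts and itself a relative of Sparc, had a log2 difference of -1.05 (adjusted p 3.62e-06), beside -0.83 for Thbs2. C4b, a complement gene 73347 bases from Tnxb, had one of -1.47 (adjusted p 0.0061) and Pappa, a protease gene 1077159 bases from Tnc, one of -0.38 (adjusted p 0.00334). Pkd2, the polycystin 2 gene next to Spp1, had one of -0.20 (adjusted p 0.0328), opposite in sign to Spp1, and lost its call without any 1 of the 6 libraries (adjusted p 0.0656 to 0.0826) and with the replicate number as a block (0.104). Fsip1, Wdr27, Serinc5, Ufm1, Dmp1 and Slc36a1 were not called.

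Per length of transcript, the members span several orders of magnitude, and their order differed between the groups. In the KO-labelled libraries the order by CPM per kilobase was Sparc (1068 ± 32.0), Postn (223 ± 16.9), Spp1 (157 ± 12.0), Thbs1 (101 ± 10.5), Tnc (24.9 ± 3.48), Thbs2 (7.03 ± 0.687), Thbs3 (3.72 ± 0.357), Comp (1.12 ± 0.360) and Tnxb (0.0209 ± 0.00717). No neighbours in that order overlapped between libraries. In the WT libraries it was Sparc (1112 ± 26.3), Thbs1 (374 ± 63.6), Tnc (59.2 ± 4.13), Postn (59.1 ± 3.62), Spp1 (45.7 ± 2.70), Thbs2 (12.5 ± 0.588), Thbs3 (2.44 ± 0.275), Comp (0.179 ± 0.0275) and Tnxb (0.0154 ± 0.00640), all SDs over 3 libraries. There Tnc and Postn overlapped and cannot be ordered. Postn and Spp1 thus stood above Thbs1 per length in every KO-labelled library and below it in every WT library. With merged exon length in place of the longest transcript, a choice added after the data were seen, Spp1 stood above Postn in both groups, overlapping with it in the KO-labelled libraries, Tnc and Postn no longer overlapped in the WT libraries, and the other positions did not move.

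**Figure D3:**
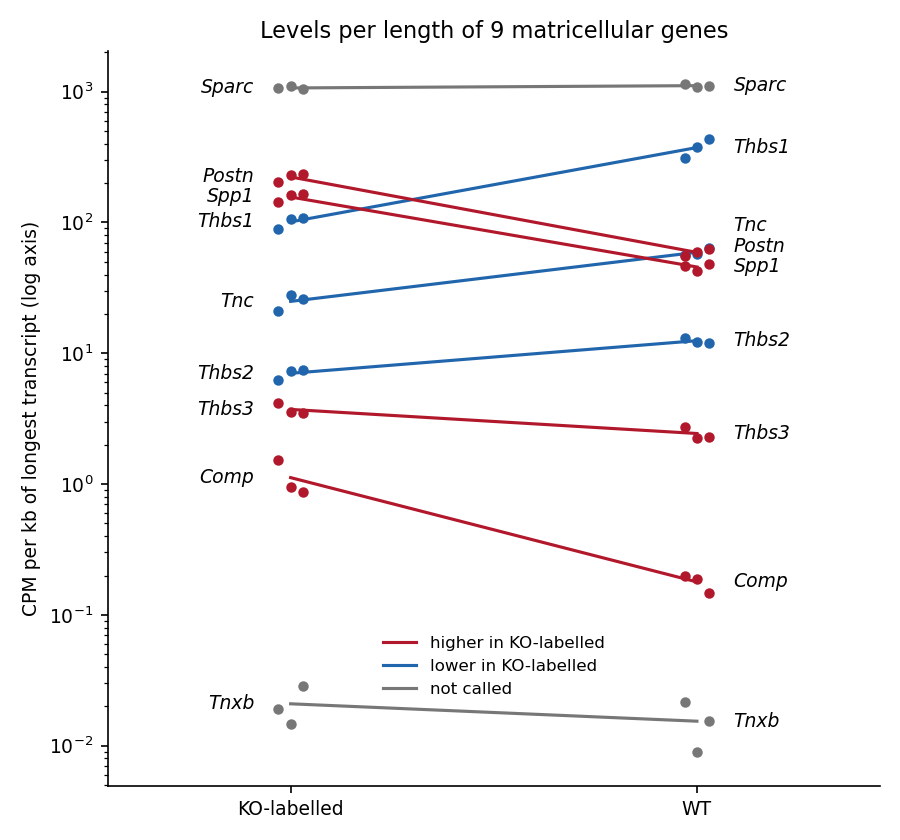
Level of 9 members in CPM per kilobase of the longest annotated transcript, on a log axis, with the 3 KO-labelled libraries at left and the 3 WT libraries at right; points are libraries, lines join group means, and colour gives the call. The lines of Postn and Spp1 cross that of Thbs1, while Sparc stays level at the top; Thbs4, with 0 counts in 4 libraries, is left out.

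Summed over the 10 members, CPM per kilobase averaged 1585 ± 58.5 in the KO-labelled and 1665 ± 55.5 in the WT libraries (SD, n = 3 each), and the libraries overlapped. With merged exon length the sums were 1011, 1096 and 1060.0 in the KO-labelled and 1133, 1163 and 1243 in the WT libraries, with no overlap. By longest transcript, Sparc held 67.4 ± 1.83% of that sum in the KO-labelled and 66.8 ± 3.22% in the WT libraries. Thbs1 held 6.37 ± 0.503% in the KO-labelled and 22.4 ± 3.14% in the WT libraries. For Postn the share was 14.1 ± 0.702% in the KO-labelled and 3.55 ± 0.134% in the WT libraries, and for Spp1 it was 9.87 ± 0.511% in the KO-labelled and 2.74 ± 0.136% in the WT libraries. These shares moved with merged exon length, to means of 61.5% in the KO-labelled and 57.4% in the WT libraries for Sparc. In the same order they were 9.21% and 30.4% for Thbs1, 12.7% and 3.00% for Postn, and 13.6% and 3.54% for Spp1. Without length scaling the 10 members summed to 4441, 4876 and 4736 CPM in KO-labelled libraries and to 5288, 5566 and 6028 CPM in WT libraries, so the sum of reads was lower in each KO-labelled library. These sums carry no test.

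Ratios within a library set the members against each other without any scaling between libraries. Thbs1 mRNA per kilobase was 0.437, 0.457 and 0.463 times that of Postn in the KO-labelled libraries and 5.63, 6.27 and 7.02 times in the WT libraries. Postn, whose protein binds tenascin-C, stood at 9.64, 8.33 and 9.03 times Tnc per kilobase in KO-labelled libraries, against 0.980, 1.04 and 0.975 times in the WT libraries. Both ratios were tight within a group and far apart between the groups. Both also moved by more than 1.5 times with merged exon length, at which Thbs1 over Postn averaged 0.726 ± 0.0217 in the KO-labelled and 10.1 ± 1.12 in the WT libraries, and Postn over Tnc 5.91 ± 0.431 in the KO-labelled and 0.655 ± 0.0236 in the WT libraries (SD, n = 3 each). For Spp1 over Tnc the ratio was 6.77, 5.83 and 6.37 in the KO-labelled libraries and 0.829, 0.742 and 0.747 in the WT libraries.

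Within the KO-labelled group, library 1 was at an end of the range for all 7 called members: it was the lowest of 3 for Thbs1, Thbs2, Tnc, Postn and Spp1 and the highest for Thbs3 and Comp. In a group of 3, all but the middle library are at an end for any gene. KO-labelled library 3 and WT library 3 were each lowest for 2 of the 7 and highest for 4. WT library 1 was lowest for 3 and highest for 3. The TMM scaling factor of KO-labelled library 1, 1.058, was the highest of the 6 libraries, where the others ran from 0.9766 to 1.004. Without that library, 4 members were higher and 3 lower, as with it. The cause was not tested.

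By a fixed measure of likeness, the root mean square difference between profiles of log2(CPM + 0.1) centred on their mean over the 6 libraries, the nearest of 9391 genes with at least 10 CPM in a group were as follows. For both Postn and Spp1 it was Epha4, an ephrin receptor, at 0.0718 and 0.0485, with 19.2 ± 2.10 CPM in the KO-labelled and 5.33 ± 0.156 CPM in WT libraries. For Thbs1 it was Tll1, a tolloid-like protease, at 0.0993. Kctd10 was nearest to Thbs2 (0.0259), Inhbb, the gene of an activin subunit, to Tnc (0.0682), the unnamed gene model Gm47164 to Thbs3 (0.0551), Pianp to Comp (0.159) and Acsl5, an acyl-CoA synthetase, to Sparc (0.0114). For Tnxb, whose profile rests on few counts, it was Amdhd2 at 0.209. All these profiles share the same 6 libraries and the same contrast of groups.

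Relatives of the members outside the list included many genes at or near 0 counts. Of 14 such genes, 6 passed the filter, of which 1 was higher, 3 lower and 2 not called, with a median log2 difference of -0.92 against 0.014 over all genes tested. Calls were made for 38.9% of all genes tested. Smoc2, a SPARC-family calcium-binding protein on chromosome 17, fell to 49.6 ± 3.02 CPM in the KO-labelled libraries, against 103 ± 3.24 CPM in WT libraries (log2 difference -1.05, SE 0.07). Its paralogue Smoc1 rose to 6.13 ± 0.206 CPM in the KO-labelled libraries, against 2.77 ± 0.347 CPM in WT libraries (1.15, SE 0.14). Sparcl1, the nearest relative of Sparc, fell to 0.346 ± 0.224 CPM in the KO-labelled libraries, against 3.29 ± 0.132 CPM in WT libraries (-3.28, SE 0.39), and Fstl1, a follistatin-like relative, by 0.32 (SE 0.08, adjusted p 0.0106; 0.0579 with the replicate number as a block) on the log2 scale. Tgfbi, a fasciclin-domain relative of periostin, stood at 0.864 ± 0.478 CPM in the KO-labelled and 1.49 ± 0.154 CPM in WT libraries and was not called (adjusted p 0.0965), nor was Dmp1 (0.102). The tenascin genes Tnr and Tnn had 2 and 0 counts over KO-labelled libraries and 7 and 17 counts over the WT libraries, and Ibsp, Mepe and Dspp, of the bone glycoprotein family of osteopontin, had at most 1 count over either group.

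Receptors for these proteins were mostly lower. From here on, each receptor, enzyme, matrix partner and regulator said by name to have risen or fallen had an adjusted p of at most 0.000608. Larger values are printed with the gene. The counts of genes called higher or lower include weaker calls, such as Smad3 at an adjusted p of 0.0406. Of 22 listed receptors, 20 were tested, of which 3 were higher, 13 lower and 4 not called, with a median log2 difference of -0.52. Shares over all genes tested were 17.6% higher and 21.3% lower. Itga8, whose integrin binds tenascin-C and osteopontin, had 0 counts over KO-labelled libraries and 8.03 ± 0.874 CPM in WT libraries; set to a floor of 3 counts over the group, it was at least 291-fold lower. Itga9, of another integrin that binds both, fell to 0.133 ± 0.0708 CPM in the KO-labelled libraries, against 1.41 ± 0.0814 CPM in WT libraries. Itga3, whose integrin can bind thrombospondin 1, fell by 1.63 (SE 0.17), and Cacna2d1, a calcium channel subunit that acts as a thrombospondin receptor in neurons, fell by 0.76 (SE 0.08) on the log2 scale.

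Cd44, the osteopontin and hyaluronan receptor, fell to 212 ± 12.2 CPM in the KO-labelled libraries, against 378 ± 49.4 CPM in WT libraries. Egfr, which low-affinity repeats of tenascin-C can engage, fell to 8.68 ± 0.751 CPM in the KO-labelled libraries, against 35.4 ± 1.15 CPM in WT libraries, and Ptprz1, a phosphatase receptor that binds tenascin-C, to 0.0536 ± 0.0426 CPM in KO-labelled libraries, against 2.63 ± 0.382 CPM in WT libraries. Itgb8, a partner of the alpha v integrin chain that activates latent TGF-beta, rose to 12.2 ± 1.79 CPM in the KO-labelled libraries, against 3.94 ± 0.220 CPM in WT libraries. Itga4 and Itgb3 were the other members of the list that rose, with log2 differences of 2.32 (SE 0.30) and 0.97 (SE 0.13). Of the classical thrombospondin 1 receptors, named after their values were seen, Cd47 stood at 80.5 ± 5.15 CPM in the KO-labelled and 79.9 ± 1.51 CPM in WT libraries and Cd36 had 2 counts over the KO-labelled and 1 over the WT libraries.

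Enzymes that cleave, cross-link, glycosylate or phosphorylate these proteins moved in both directions, with 4 of 13 tested higher, 8 lower and 1 not called, and a median of -0.60. The share called over all genes tested was 38.9%. Tll1, a protease of the BMP1 family, fell to 20.6 ± 1.19 CPM in the KO-labelled libraries, against 86.7 ± 12.9 CPM in WT libraries. Fam20a, the pseudokinase partner of the kinase that phosphorylates osteopontin, fell to 6.58 ± 0.0900 CPM in the KO-labelled libraries, against 29.7 ± 3.83 CPM in WT libraries, while that kinase, Fam20c, rose to 67.9 ± 4.29 CPM in KO-labelled libraries, against 44.0 ± 1.20 CPM in WT libraries. Tgm2, a transglutaminase that can cross-link osteopontin and fibronectin, rose to 52.1 ± 6.06 CPM in the KO-labelled libraries, against 18.9 ± 0.777 CPM in WT libraries. Adamts1, a protease that can cleave thrombospondins 1 and 2, rose by 0.74 (SE 0.07). Dpy19l1, of the family that mannosylates tryptophans, fell by 0.66 (SE 0.07), Plau, the urokinase gene, by 0.65 (SE 0.08) and Mmp2, gelatinase A, by 0.66 (SE 0.10) on the log2 scale.

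Matrix proteins that bind the members were split, with 7 of 18 tested higher, 6 lower and 5 not called, and a median of 0.13. Over all genes tested, 38.9% were called. Fn1, the gene of fibronectin, which tenascin-C, periostin and thrombospondin 1 all bind, rose to 14511 ± 2736 CPM in the KO-labelled libraries, against 5860.1 ± 269 CPM in WT libraries. Col9a1 and Matn3, cartilage partners of COMP, rose to 29.5 ± 0.391 and 8.88 ± 1.27 CPM in the KO-labelled libraries, against 0.307 ± 0.122 and 1.72 ± 0.180 CPM in WT libraries. Col3a1 rose by 0.94 (SE 0.11), and the proteoglycan gene Dcn by 1.98 (SE 0.14), on the log2 scale. Col12a1, of a fibril-associated collagen that binds tenascin-X, fell to 288 ± 51.3 CPM in the KO-labelled libraries, against 810.0 ± 10.9 CPM in WT libraries. Lox, the cross-linking enzyme whose activation periostin aids, fell to 3426 ± 57.9 CPM in the KO-labelled libraries, against 6107 ± 496 CPM in WT libraries, and Matn2 fell by 0.73 (SE 0.07) on the log2 scale.

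**Figure D4:**
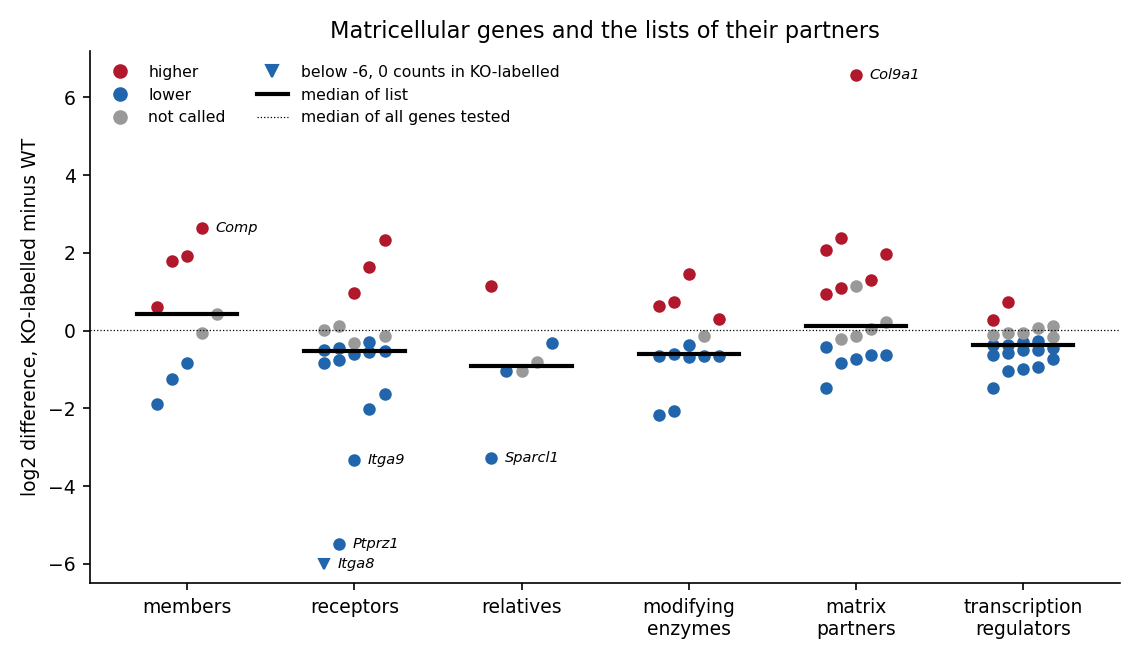
Log2 differences, KO-labelled minus WT, of the tested genes in the members' list and in 5 lists of partners; each point is a gene, red higher, blue lower, grey not called, black bars are list medians and the dotted line is the median of all genes tested. Medians run from -0.92 for the relatives to 0.43 for the members, and the triangle marks Itga8, which had 0 counts over KO-labelled libraries and is drawn at the lower edge.

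Transcription regulators and TGF-beta genes reported to act on members were mostly lower: 2 of 22 tested were higher, 14 lower and 6 not called, with a median of -0.38. Tgfbr2, a receptor for TGF-beta, fell to 60.0 ± 4.60 CPM in the KO-labelled libraries, against 123 ± 4.92 CPM in WT libraries. The receptor gene Tgfbr1 was higher, with a log2 difference of 0.26 (SE 0.08, adjusted p 0.0255). The ligand gene Tgfb2 rose to 87.5 ± 2.11 CPM in the KO-labelled libraries, against 52.9 ± 2.56 CPM in WT libraries, and Tgfb3 fell by 0.63 (SE 0.07). Mrtfa, a coactivator of serum response factor, fell to 27.6 ± 1.71 CPM in the KO-labelled libraries, against 54.8 ± 4.34 CPM in WT libraries. Runx2, a regulator of Spp1 in bone cells, fell to 36.3 ± 3.19 CPM in the KO-labelled libraries, against 60.1 ± 0.437 CPM in WT libraries. Twist1, a regulator of Postn, fell by 0.51 (SE 0.07), while Spp1 and Postn themselves rose. These are mRNA levels only, and the part of any listed regulator in the members' levels was not tested. Scx, a tendon transcription factor, fell by 1.49 (SE 0.15) and Myc, which represses Thbs1 in other cells, by 0.95 (SE 0.08) on the log2 scale. The lists were written with earlier results of these data known, and 72.7% of the regulators, 80.0% of the receptors, 92.3% of the enzymes, 72.2% of the matrix proteins and 66.7% of the relatives tested were called, against 38.9% of all genes.

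The remaining marker lists cover other cell types. The fibroblast markers had summed levels of 14835 to 16544 CPM in the KO-labelled and 14741 to 17786 CPM in WT libraries; Vim had the highest level in the KO-labelled libraries and Col1a1 in the WT libraries, where it averaged 5716 ± 833 CPM. Smooth muscle markers, led by Acta2, summed to 2178 to 2426 CPM in the KO-labelled and 3095 to 3452 CPM in WT libraries. Of 4 tested, 2 were lower and 2 not called, where 21.3% of all genes tested were called lower. Endothelial markers, led by Tek, summed to 20.9 to 24.7 CPM in the KO-labelled and 35.3 to 39.5 CPM in WT libraries, and the defining genes Cdh5 and Kdr had 1 and 2 counts over the KO-labelled and 17 and 38 counts over the WT libraries. Pecam1 went the other way, with 89 counts over the KO-labelled and 44 over the WT libraries (log2 difference 1.21, adjusted p 0.091). Of the 2 endothelial markers tested, Tek was lower and Pecam1 not called, with a median log2 difference of 0.23. Epithelial markers, led by Cdh1, summed to 6.13 to 9.03 CPM in the KO-labelled and 2.16 to 2.60 CPM in WT libraries, and Epcam had 1 count over each group. Platelet markers, led by Itga2b, summed to 1.51 to 3.47 CPM in the KO-labelled and 1.88 to 2.79 CPM in WT libraries, and Pf4 had 0 counts. The part of these levels in the results for Thbs1, Tnc and the other members was not tested.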

How the data were processed

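Libraries of polyA RNA from 10T1/2 cells, 3 labelled Ranbp2 KO and 3 labelled WT, were compared. The deposited values are expected counts per Ensembl gene, made by the authors with RSEM, with cutadapt and GRCm38 also named, per the submitters' processing notes; their versions, the aligner and the use of strand were not given in the sources used. Of the values, 17.9% were not whole, since RSEM divides reads that match several genes. Symbols and positions came from GENCODE M21 (same build), which matched 55230 identifiers and missed 241.

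Expected counts were rounded, filtered with filterByExpr (minimum count 10, minimum total 15), scaled by TMM and compared with edgeR 4.0.16's quasi-likelihood F test in R 4.3.3 (two-sided, genotype as the only term, Benjamini-Hochberg adjustment over 15454 genes); the SE is the log2 difference over the root of F, and 95% intervals use its t quantile. The common biological coefficient of variation was 11.5%. Floors cover counting error only. The test was checked on simulated counts. Alternatives included DESeq2 1.42.0. Replicate numbers were not used as pairs in the main test, and no pair of libraries of a group agreed within sampling noise. Named were all members, up to 8 genes of each other list by smallest adjusted p, the neighbours that passed the filter, the nearest profile of each member and the highest marker of each cell type list; other genes named were chosen after their values were seen. The members and lists were chosen with earlier results of these data known.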

Additional observations from a re-analysis of the deposited data

How the results depend on the processing

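Over 13 alternatives to scaling, test, filter, rounding, block and libraries, all 115 values of the 9 tested members kept their direction and their side of the threshold; Tnxb could not be tested under the stricter filter or without WT library 1. Log2 differences ran from -2.01 to -1.76 for Thbs1, 2.35 to 2.79 for Comp and 1.87 to 1.98 for Postn, and the largest adjusted p of a called member was 0.0142, for Thbs3. Relatives called lower numbered 5 of 12 tested without a count filter, against 3 of 6; the added calls were Tnn, not tested otherwise, and Tgfbi. Regulators called higher numbered 1 with the replicate block and 1 to 2 with a library left out, against 2; the cause was not tested. Deviations of same-numbered libraries from their group means correlated at 0.0224, -0.0811 and -0.0343, and those of differently numbered libraries at -0.0955 to 0.152. The labels do not say whether same-numbered libraries shared a culture or batch, and such correlations cannot settle it. With the replicate block 2213 genes were higher and 2781 lower, against 2721 and 3290. Another 66 named genes were followed through the alternatives, and 57 of them kept their side of the threshold throughout. Fstl1, Gm5641, Pkd2 and Col1a1 lost their calls as given above. Not called in the main test, 8030451A03Rik, Crtc1, Mtx1, Mtx3 and Tgfbi passed the threshold in 1 or 2 alternatives each. The remaining named genes were not followed in this way. Among them were Col2a1 (adjusted p 0.022 in the main test), Col10a1, Hapln1, Lyz2, Tek, Pecam1 and Acta2. Depth limits Tnxb and Thbs4.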
